A study of Mus musculus with 12 samples.

Results

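The 10 genes described here encode the transforming growth factor beta (TGF-beta) ligands (Tgfb1, Tgfb2, Tgfb3), their receptors (Tgfbr1, Tgfbr2, Tgfbr3) and the latent TGF-beta binding proteins (Ltbp1, Ltbp2, Ltbp3, Ltbp4). They were taken by gene symbol from a table of read counts with 24421 rows, and all 10 passed the filter on low counts that left 13937 genes for testing. The counts come from RNA sequencing of the tibialis anterior, a muscle of the lower hindlimb, in 6 libraries from C57Bl/6 mice (WT) and 6 from mdx/mTR mice, all male and 4 months old. In mdx the dystrophin gene Dmd is disrupted, and mTR names the mouse telomerase RNA. The labels give neither zygosity, nor the generation of telomerase deficiency, nor the background strain of mdx/mTR. No group carries mdx alone or mTR alone, so the effects of the alleles, and of any difference in strain background, cannot be told apart. The labels do not state that each library is a separate mouse, and the p-values measure the spread between these libraries.

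TGF-beta is secreted as a latent complex in which its own propeptide keeps the ligand inactive. LTBP1, LTBP3 and LTBP4 bind this complex and anchor it to fibrillin microfibrils in the extracellular matrix, from which integrins, proteases and thrombospondin 1 can release it. Free ligand binds the type II receptor TGFBR2, which phosphorylates the type I receptor TGFBR1, and TGFBR1 phosphorylates SMAD2 and SMAD3. In dystrophic muscle this pathway is known for driving fibrosis, and genetic variants of Ltbp4 modify the severity of muscular dystrophy in mice.

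The WT libraries held between 36903560 and 40981012 counts and those of mdx/mTR between 35136327 and 60330410. Dmd, the check of the labels, had a mean level, in counts scaled to a common library size (CPM), of 237 ± 6.90 in WT against 46.8 ± 7.20 in the mdx/mTR group (SD, n = 6 each), and the groups did not overlap. The telomerase RNA gene, listed as Terc, had 2 counts over all libraries and gives no check of the mTR label. The defining genes of the labelled tissue, among them Ckm, Acta1 and Ttn, were abundant in every library, with a summed level of 8 muscle fibre markers between 86789 and 118614 CPM. WT 2 stood apart from its group for Tgfb1, Tgfbr1 and Ltbp4, and mdx/mTR 5 for Ltbp2. Values without these libraries are given where they matter.

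Of the 10 genes, 4 were higher in mdx/mTR (Tgfb1, Tgfbr2, Ltbp1 and Ltbp2) and 0 were lower at an adjusted p below 0.05 (edgeR quasi-likelihood test, adjusted over all 13937 genes). Of all genes tested, 48.3% were called, 25.0% higher and 23.4% lower, so the number called among the 10 is near the background. At an unadjusted p below 0.05, 6 of the 10 were higher and 1 was lower, where 28.4% of all genes tested were higher and 26.3% lower. DESeq2 called 1 lower, Tgfb2, and limma-voom 0. With WT 2 and mdx/mTR 5 both left out, a choice made after seeing the data, 5 were higher, Ltbp4 being added, and 1 was lower, Tgfbr1. The median log2 fold change of the 10 was 0.15, against 0.01 over all genes tested. In Tgfb1 alone of the 10, every mdx/mTR library lay above every WT library, a pattern found in 12.6% of all genes. These libraries are bulk tissue, in which a change in the number of cells of a type and a change in RNA per cell cannot be told apart. With library totals in place of TMM, the scaling by trimmed mean of M-values used throughout, the median of all genes moved from 0.01 to 0.17 and the share of calls that were higher from 51.6% to 78.2%. All values that follow use TMM unless another scaling is named.

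**Figure D1:**
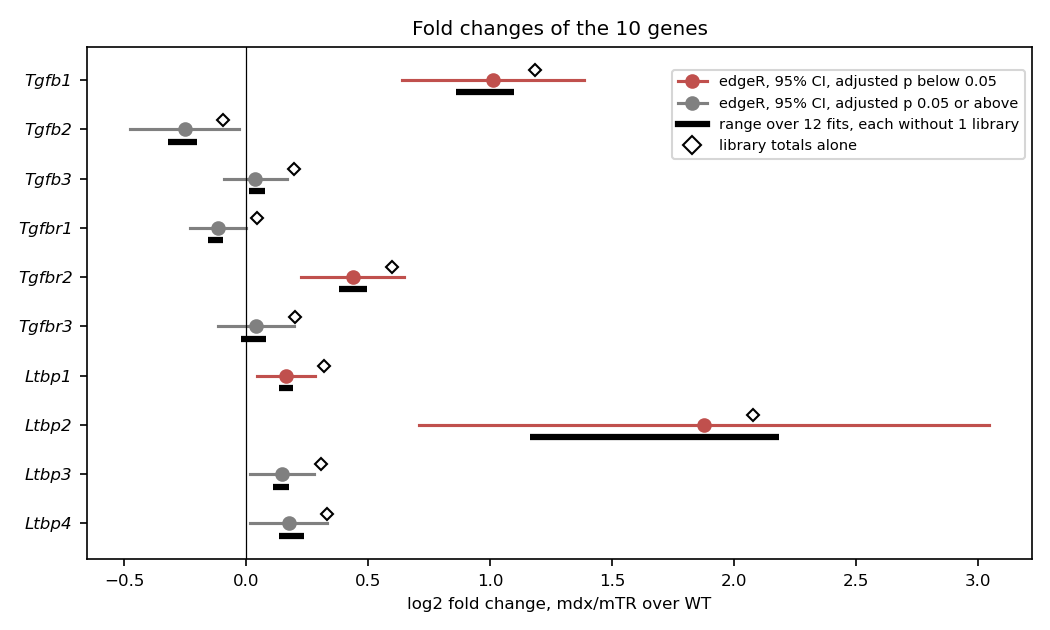
Change from WT to mdx/mTR on the log2 scale for each of the 10 genes, with its 95% confidence interval (circles and thin lines), the range over 12 fits that each left out 1 library (thick bars) and the value with library totals alone (open diamonds). Ltbp2 and Tgfb1 have the largest values, 1.88 and 1.01, and the interval of Ltbp2 is the widest.

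The sequence just upstream of the start is shown for Tgfb1, Tgfbr2 and Ltbp2, the ligand, the receptor and the binding protein with the largest rise of their class. RefSeq promoter entries (GRCm38.p6) matched 8 of the 10 genes. The 250 bases before the start are given 5′ to 3′ on the strand of the gene: for Tgfb1 chr7:25686752-25687001 (plus strand), for Tgfbr2 chr9:116175364-116175613 (minus strand) and for Ltbp2 chr12:84876533-84876741 (minus strand), where 41 bases that GENCODE M21 places in an exon of Ltbp2 were left out. Capitals mark GGGCGG, the Sp1 box, and CAGAC, the core of the Smad binding element, on either strand.
Tgfb1: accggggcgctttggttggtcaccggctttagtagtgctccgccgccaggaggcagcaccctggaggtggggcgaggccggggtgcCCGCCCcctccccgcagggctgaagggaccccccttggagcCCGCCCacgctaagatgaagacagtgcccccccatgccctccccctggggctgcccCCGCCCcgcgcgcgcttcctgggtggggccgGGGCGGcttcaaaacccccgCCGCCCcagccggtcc
Tgfbr2: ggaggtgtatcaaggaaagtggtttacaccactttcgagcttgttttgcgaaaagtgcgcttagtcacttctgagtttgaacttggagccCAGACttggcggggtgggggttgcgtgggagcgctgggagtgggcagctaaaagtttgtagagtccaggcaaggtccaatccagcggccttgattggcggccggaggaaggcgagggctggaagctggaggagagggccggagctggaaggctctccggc
Ltbp2: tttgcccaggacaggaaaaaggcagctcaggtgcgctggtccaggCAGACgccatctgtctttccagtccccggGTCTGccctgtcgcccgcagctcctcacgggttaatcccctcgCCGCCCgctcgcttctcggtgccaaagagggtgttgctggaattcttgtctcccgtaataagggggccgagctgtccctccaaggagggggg
The Tgfb1 window was 75.2% G and C, and held 5 Sp1 boxes and 0 Smad boxes. That of Tgfbr2 was 58.4% G and C, with 0 Sp1 boxes and 1 Smad box, and the stretch shown for Ltbp2 was 63.2% G and C, with 1 Sp1 box and 2 Smad boxes. The stretch of Ltbp2 lies within exons of D030025P21Rik, an antisense gene on the opposite strand, which had 1 count over all 12 libraries. Among 32851 mouse promoter windows of 250 bases, 32.7% held an Sp1 box and 42.2% a Smad box, and the median content of G and C was 52.4%. The AP-1 site TGACTCA, also searched on both strands, was in 4.46% of all windows and in 0 of the 12 windows of the 8 genes with an entry. A match describes these letters and is not a measured binding site.

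Among the ligands, Tgfb1 rose about 2-fold, while Tgfb2 and Tgfb3 did not pass the test. Tgfb1 (chr7:25687002-25705077, GRCm38, plus strand) encodes the ligand most closely linked to fibrosis and immune regulation. Its level was 6.20 CPM at the lowest, 6.50 at the median and 9.04 at the highest in WT, and 9.76, 12.7 and 20.96 CPM in mdx/mTR. The groups did not overlap, with mdx/mTR 5 (20.96 CPM) and mdx/mTR 2 (17.2 CPM) at the top and WT 2 the highest of its group. The means were 6.94 ± 1.08 and 14.0 ± 4.27 CPM (SD, n = 6 each), giving a fold of 2.02 with a 95% interval of 1.56 to 2.61 and a log2 fold change of 1.01 ± 0.17 (SE; edgeR adjusted p 0.000385). Tgfb1 also varied more among the mdx/mTR libraries, with a coefficient of variation of 30.5% against 15.6% in WT, or 5.67% in WT without WT 2. This difference was not tested.

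Tgfb2 (chr1:186622792-186705989, minus strand) encodes a ligand that depends more than the others on the co-receptor betaglycan. In WT it ranged from 24.5 to 33.1 CPM with a median of 30.2, and in mdx/mTR from 20.3 to 30.5 CPM with a median of 24.4. The ranges overlapped, although 3 mdx/mTR libraries lay below all WT libraries. The log2 fold change was -0.25 ± 0.10 (SE; edgeR adjusted p 0.0600), a fold of 0.840 with an interval of 0.719 to 0.981. Tgfb2 was the gene on which the tools parted: DESeq2 gave -0.26 with an adjusted p of 0.0491, and the authors' deposited table gives -0.26 with an adjusted p of 0.0418. It was also called by edgeR without WT 4, without mdx/mTR 2 or without mdx/mTR 4, and reached -0.32 at most.

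Tgfb3 (chr12:86056745-86079041, minus strand) encodes the third ligand and was the most abundant of the class. It ranged from 42.9 to 53.7 CPM in WT (median 45.8) and from 44.9 to 51.7 CPM in mdx/mTR (median 48.4). The mdx/mTR range lay inside that of WT. The log2 fold change was 0.04 ± 0.06 (SE; edgeR adjusted p 0.630), and the 95% interval of the fold under TMM was 0.939 to 1.12. With library totals alone the log2 fold change was 0.20 (edgeR adjusted p 0.0399). Antisense genes cover 12.4% of the exon bases of Tgfb3, and without a stated strand setting their reads cannot be told apart from its own.

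**Figure D2:**
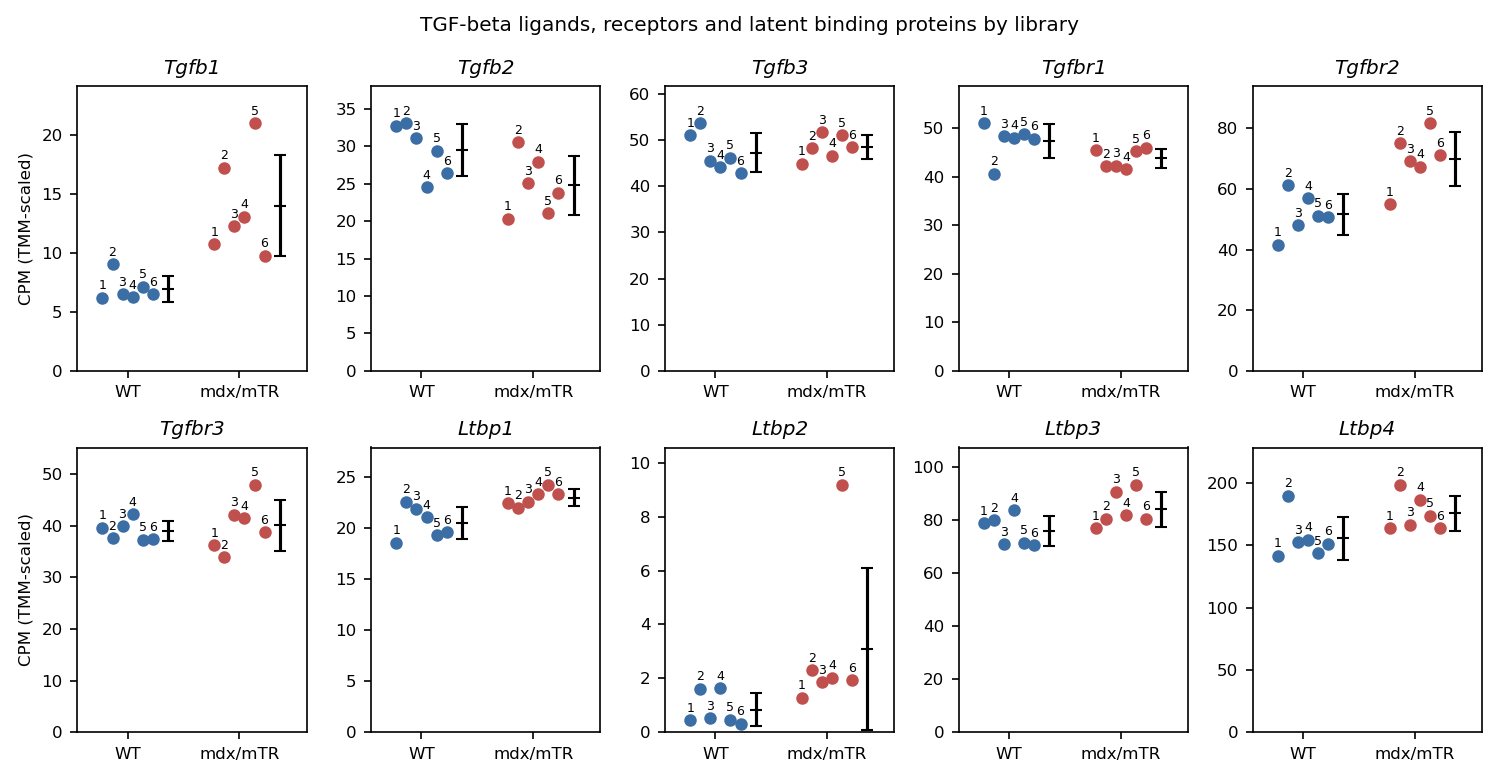
Level of each of the 10 genes in CPM in every library, with replicate numbers beside the points and the group mean ± SD in black (n = 6 each; each axis starts at 0). The groups are apart for Tgfb1, and mdx/mTR 5 stands at 9.18 CPM for Ltbp2 above the other libraries.

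Among the receptors, Tgfbr2 rose 1.35-fold, and Tgfbr1 and Tgfbr3 did not pass the test. Tgfbr2 (chr9:116084293-116175360, minus strand), the receptor that binds the ligand first, was at 41.7, 50.9 and 61.2 CPM (lowest, median and highest) in WT and at 55.0, 70.2 and 81.7 CPM in mdx/mTR. Of the 6 mdx/mTR libraries 5 lay above all WT libraries, and mdx/mTR 1 lay below WT 2 and WT 4. The fold was 1.35 with a 95% interval of 1.17 to 1.56 (log2 fold change 0.44 ± 0.10 SE, edgeR adjusted p 0.00246).

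Tgfbr1 (chr4:47353222-47414931, plus strand), the kinase that passes the signal to the Smads, ranged from 40.6 to 51.0 CPM in WT (median 48.2) and from 41.6 to 45.9 CPM in mdx/mTR (median 43.7). The mdx/mTR libraries all lay below the WT median but within the WT range, whose lower end was set by WT 2. The log2 fold change was -0.11 ± 0.05 (SE; edgeR adjusted p 0.0937). It was -0.16 without WT 2, which passed the test, and 0.04 with library totals alone, which turned the direction. Tgfbr3 (chr5:107106570-107289629, minus strand) encodes betaglycan, which presents ligand to TGFBR2. It ranged from 37.3 to 42.2 CPM in WT (median 38.6) and from 34.0 to 47.9 CPM in mdx/mTR (median 40.1). Here the mdx/mTR libraries fell on both sides of WT, 1 above and 2 below all WT libraries. The log2 fold change was 0.04 ± 0.07 (SE; edgeR adjusted p 0.685), and -0.02 without mdx/mTR 5.

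The ratio of Tgfbr2 to Tgfbr1 was computed within each library from CPM per kilobase of exon, so that the scaling of libraries cancels. Its mean was 0.880 ± 0.185 in WT against 1.28 ± 0.172 in the mdx/mTR libraries (SD, n = 6 each). WT 2 reached 1.20 and mdx/mTR 1 was at 0.964, so the ranges overlapped at these libraries. As shares of the summed receptors, Tgfbr2 went from 32.3% ± 3.82 to 39.9% ± 2.96, Tgfbr1 from 37.2% ± 3.15 to 31.5% ± 2.65 and Tgfbr3 from 30.5% ± 1.10 to 28.6% ± 2.14. These shares were not tested, and the group ranges overlapped for each of the 3 receptors.

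Among the latent binding proteins, Ltbp2 and Ltbp1 passed the test as higher, the first from a very low level and the second by little. Ltbp2 (chr12:84783212-84876532, minus strand) encodes the one family member that does not bind latent TGF-beta; it is known as a microfibril protein. Its level was 0.328, 0.499 and 1.65 CPM (lowest, median and highest) in WT and 1.29, 1.98 and 9.18 CPM in mdx/mTR, on 12 to 62 counts per library in WT and 68 to 431 in mdx/mTR. WT fell apart into 2 libraries above 1.6 CPM, WT 2 and WT 4, and 4 at 0.527 CPM or less, and 5 of 6 mdx/mTR libraries lay above all of WT. The fold was 3.67 with a 95% interval of 1.63 to 8.26 (log2 fold change 1.88 ± 0.55 SE, edgeR adjusted p 0.0115). Much of its size came from mdx/mTR 5: without that library the mdx/mTR mean was 1.88 ± 0.375 CPM in place of 3.10 ± 3.0, and the log2 fold change was 1.16 (edgeR adjusted p 0.0226).

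Ltbp1 (chr17:75005568-75392512, plus strand) encodes a carrier of the latent complex. It ranged from 18.6 to 22.6 CPM in WT (median 20.4) and from 22.01 to 24.3 CPM in mdx/mTR (median 23.0). The ranges met at their edges, with 3 of 6 mdx/mTR libraries above all of WT. The fold was 1.12 with a 95% interval of 1.03 to 1.22 (log2 fold change 0.16 ± 0.06 SE, edgeR adjusted p 0.0245). This call was lost without WT 1, WT 5, WT 6 or mdx/mTR 5, with log2 fold changes of 0.14 at the lowest.

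Ltbp3 (chr19:5740904-5758532, plus strand) and Ltbp4 (chr7:27305136-27337692, minus strand) encode the other carriers of the latent complex, and neither passed the test. Ltbp3 ranged from 70.5 to 83.7 CPM in WT (median 75.1) and from 77.0 to 93.3 CPM in mdx/mTR (median 81.2), a log2 fold change of 0.15 ± 0.06 (SE; edgeR adjusted p 0.0626). Ltbp4, the most abundant of the 10 genes, ranged from 142 to 190 CPM in WT (median 152) and from 164 to 199 CPM in mdx/mTR (median 170), a log2 fold change of 0.17 ± 0.07 (SE; edgeR adjusted p 0.0671). In both genes all 6 mdx/mTR libraries lay above the WT median, while 2 of them for Ltbp3 and 1 for Ltbp4 lay above all of WT. The fold was 1.11 for Ltbp3 (95% interval 1.01 to 1.21) and 1.13 for Ltbp4 (1.01 to 1.26). The fold of Ltbp1, which passed the test, was 1.12, so the 3 genes differed little in the size of the change. Without WT 2, at 190 CPM, Ltbp4 passed the test with a log2 fold change of 0.24. Ltbp3 passed without WT 4 or without mdx/mTR 1, at 0.17 in both fits.

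Per kilobase of exon, the levels of the 10 genes could be ordered within a group. In WT the order was Ltbp4 (24.1 CPM per kilobase), Tgfb3 (14.0), Ltbp3 (8.37), Tgfbr1 (7.26), Tgfbr2 (6.31), Tgfbr3 (5.96), Tgfb2 (5.10), Ltbp1 (1.92), Tgfb1 (1.38) and Ltbp2 (0.103). The ranges over the 6 libraries did not overlap between Ltbp4 and Tgfb3, Tgfb3 and Ltbp3, Tgfb2 and Ltbp1, or Tgfb1 and Ltbp2. The other neighbours in the order overlapped. In mdx/mTR the order was the same but for 2 exchanges between neighbours: Tgfbr2 (8.54) came before Tgfbr1 (6.70), and Tgfb1 (2.78) before Ltbp1 (2.15), in both cases with overlapping ranges. There the ranges were apart between Ltbp4 and Tgfb3, Tgfb3 and Ltbp3, and Ltbp1 and Ltbp2. The order depended on the length used. With the longest transcript in place of the union of exons, Tgfbr3 (6.41) came before Tgfbr2 (6.38) in WT, and in mdx/mTR Ltbp3 (14.7) came before Tgfb3 (14.3) and Tgfb1 (5.44) before Tgfb2 (4.84), each with overlapping ranges. Tgfb3 and Ltbp3 also overlapped in WT under that length.

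Per kilobase of the union of exons, Tgfb1 had the smallest mean share of the ligands in both groups. The total of the 3 ligands overlapped between the groups. Tgfb1 made up 6.73% ± 0.700 of the ligand CPM per kilobase in WT (5.59% to 7.68%) and 12.8% ± 3.16 in mdx/mTR (9.49% to 18.2%; SD, n = 6 each). The groups did not overlap in this share, which does not depend on how libraries were scaled. Tgfb2 made up 24.9% ± 1.29 in WT and 20.00% ± 2.67 in mdx/mTR, with ranges of 22.9% to 26.7% and 15.9% to 23.0% that met at their edges. Tgfb3 held the largest share in every library, 68.4% ± 1.19 and 67.2% ± 3.32. The summed ligands were 20.4 ± 1.92 in WT and 21.4 ± 1.57 CPM per kilobase in mdx/mTR. Unlike the shares, this total depends on the scaling. With library totals alone, the log2 fold changes were 1.19 for Tgfb1, -0.09 for Tgfb2 and 0.20 for Tgfb3. The share of Tgfb1 depended on the length used: the difference of 6.11 percentage points became 9.78 with the longest transcript. Under that length the mean of Tgfb1 was 2.70 CPM per kilobase in WT, below that of Tgfb2 (5.77). In mdx/mTR it was 5.44, above that of Tgfb2 (4.84).

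The ratio of Tgfb1 to Tgfb2 showed the shift among ligands within each library. Its mean was 0.271 ± 0.0357 in WT against 0.661 ± 0.244 in the mdx/mTR libraries (SD, n = 6 each), and the groups did not overlap. It was highest in mdx/mTR 5, at 1.14. Whether Tgfb1 exceeded Tgfb2 there depended on the length used: the ratio in mdx/mTR 5 was 0.995 in CPM without length and 1.98 with the longest transcript, under which mdx/mTR 1 (1.05) and mdx/mTR 2 (1.12) also exceeded 1. The groups did not overlap with either length or without one. Among the binding proteins the make-up was alike in the groups, with Ltbp4 at 69.8% ± 1.87 and 69.7% ± 2.57 and Ltbp3 at 24.4% ± 1.87 and 23.8% ± 1.88. Ltbp2 stayed a trace component, at 0.286% ± 0.191 in WT and 0.955% ± 0.891 in mdx/mTR, or 0.593% ± 0.0925 without mdx/mTR 5. The summed binding proteins were 34.5 ± 3.17 and 39.0 ± 2.35 CPM per kilobase, with overlapping ranges.

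**Figure D3:**
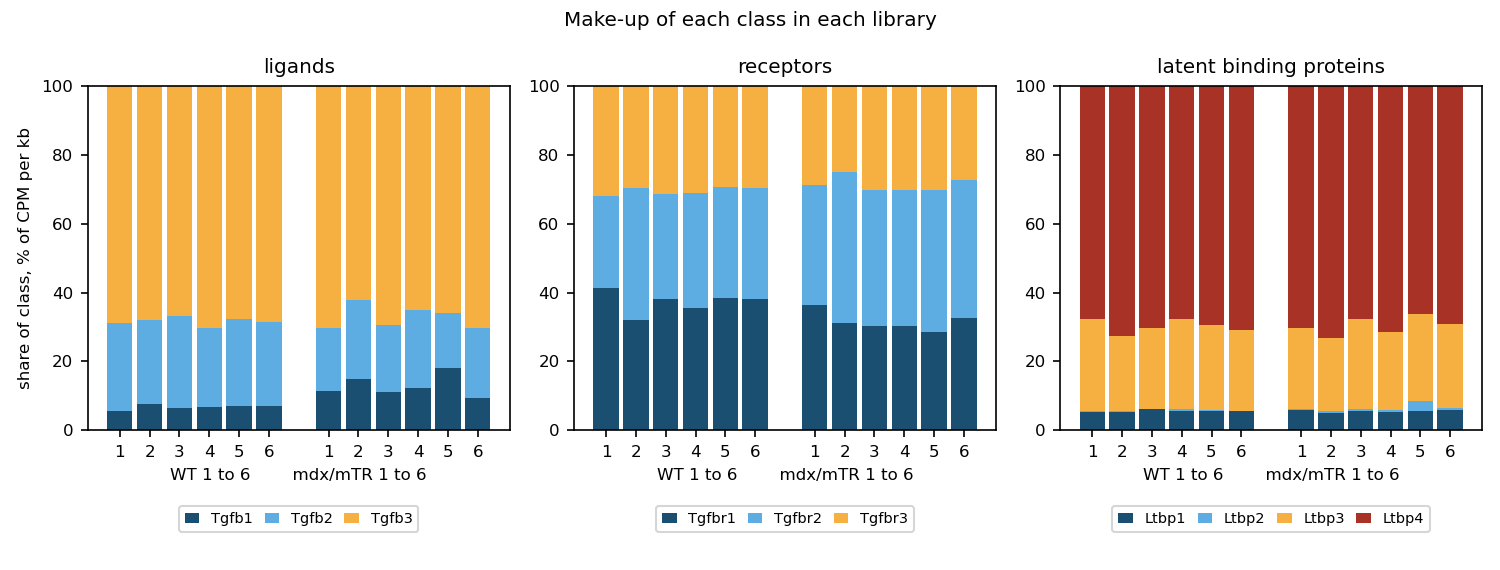
Share of each gene in its class, in percent of the summed CPM per kilobase of exon, for WT 1 to 6 (left bars) and mdx/mTR 1 to 6 (right bars). The Tgfb1 share is 5.59% to 7.68% in WT and 9.49% to 18.2% in mdx/mTR, while Tgfb3 and Ltbp4 hold the largest share of their class in every library.

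The authors' deposited table gives the same direction as edgeR for each of the 10 genes. At an adjusted p below 0.05, the authors' deposited table has Tgfb1, Tgfbr2, Ltbp1 and Ltbp2 higher and Tgfb2 lower. The log2 fold change in the authors' deposited table is 0.95 for Tgfb1, 0.42 for Tgfbr2 and 0.15 for Ltbp1. For Ltbp2 the authors' deposited table gives 1.13 with an adjusted p of 0.00497. On the deposited counts edgeR gave 1.88 and DESeq2 1.87, and the reason for the difference was not tested.

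Other genes of the pathway were read from lists of known roles, written with earlier results of these data known. Their counts are therefore a description and not a test. Of all genes tested, 25.0% were higher and 23.4% lower. Of 15 tested genes with a direct or indirect part in the activation of latent TGF-beta, 10 were higher and 1 was lower. The median log2 fold change of this list was 0.42. Mmp2 (1.22 ± 0.13 SE, edgeR adjusted p 9.2e-06) and Mmp14 (1.39 ± 0.18), matrix metalloproteinases, and Bmp1 (0.60 ± 0.08), a protease that can cleave LTBP1, had the smallest p-values. Thbs1, encoding the activator thrombospondin 1, rose from a mean of 10.6 ± 4.57 to one of 23.8 ± 8.99 CPM. On the log2 scale the rise was 1.16 ± 0.27 (SE, edgeR adjusted p 0.00269). The ranges overlapped: WT 4 (19.7 CPM) lay above mdx/mTR 1 (14.9), mdx/mTR 4 (17.6) and mdx/mTR 6 (19.4). The libraries mdx/mTR 2 (24.2), mdx/mTR 3 (27.1) and mdx/mTR 5 (39.8) lay above all of WT. Itgb5, an integrin chain that pairs with the alpha v chain, was lower (-0.30 ± 0.09), a call lost with library totals alone.

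Of 14 genes of microfibrils and elastic fibres, to which the latent complexes are tethered, 10 were higher and 0 lower, with a median of 0.65. Mfap4 (2.20 ± 0.31 SE), Mfap5 (1.05 ± 0.16) and Mfap2 (1.53 ± 0.25), which encode microfibril-associated proteins, had the smallest p-values. Fbn1, encoding fibrillin 1, rose from 87.2 ± 16.4 to 125 ± 37.9 CPM (0.52 ± 0.18, edgeR adjusted p 0.0251), and was no longer called without WT 1, WT 5, mdx/mTR 2 or mdx/mTR 5. Of 5 genes for proteoglycans and related proteins that bind TGF-beta, 4 were higher and 0 lower (median 0.59), among them the proteoglycan genes Dcn (0.59 ± 0.06), Bgn (1.23 ± 0.25) and Aspn (0.85 ± 0.18).

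Of 10 co-receptors and receptor adaptors, 2 were higher and 3 lower (median -0.16). The adaptor Dab2 (0.83 ± 0.19) and the co-receptor Cd109 (1.33 ± 0.32) rose. The endothelial co-receptor Eng (-0.36 ± 0.08) and the receptor-associated Tgfbrap1 (-0.22 ± 0.04) fell, with no overlap of the groups in either gene. The share of all genes with every mdx/mTR library below every WT library was not counted. Of 16 Smads and Smad regulators, 2 were higher and 8 lower (median -0.12). Smad2 (-0.19 ± 0.07), Smad3 (-0.28 ± 0.11, edgeR adjusted p 0.0454) and Smad4 (-0.28 ± 0.06), the Smads that carry the signal, passed the test as lower. The phosphatase gene Ppm1a (-0.41 ± 0.07) and the deubiquitinase gene Usp15 (-0.39 ± 0.07) had the smallest p-values among the falls. As for Eng and Tgfbrap1, the groups did not overlap in Ppm1a, Usp15 and the further regulator Smurf2. The repressors Skil (0.29 ± 0.11) and Tgif1 (0.39 ± 0.14) were higher. Smad7, the inhibitory Smad, had a log2 fold change of -0.06 ± 0.14 (edgeR adjusted p 0.766).

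The counts of these last lists moved with the scaling. Under library totals alone, 2 Smads and regulators and 0 co-receptors and adaptors were lower, and the medians were 0.04 and 0.00099. Smad2, Smad3, Smad4, Eng and Tgfbrap1 then lost their calls, whereas Ppm1a and Usp15 kept theirs. With upper quartile factors, Smad2 and Smad3 lost their calls as well, and 4 Smads and regulators were lower in place of 8. Smad3 also lost its call in 8 of 12 fits without 1 library, Tgif1 in 8 and Skil in 7, while Smad2 lost it without WT 5 or mdx/mTR 3. Those higher among the Smads and regulators numbered 0 to 3 over the 12 fits.

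Of 15 genes known to be induced by TGF-beta, 13 were higher and 1 was lower, with a median of 1.23. Cilp (2.94 ± 0.20 SE, from 24.4 ± 7.76 to 188 ± 40.6 CPM), a matrix protein gene, Timp1 (4.00 ± 0.55), an inhibitor of metalloproteinases, and Col3a1 (1.67 ± 0.25), a fibrillar collagen, had the smallest p-values. Ctgf, a matricellular gene, rose by 0.63 ± 0.19 (edgeR adjusted p 0.0131). Tagln, a smooth muscle gene, was lower (-0.28 ± 0.10), a call lost with library totals alone, with upper quartile factors and in 5 of 12 fits without 1 library.

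**Figure D4:**
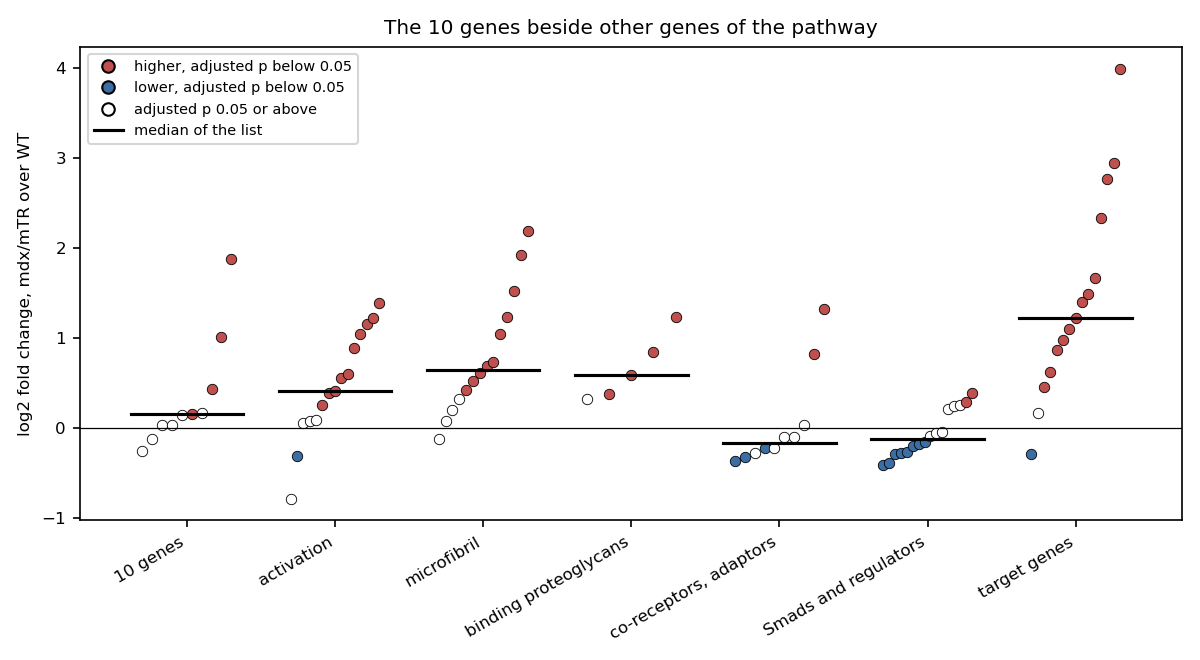
Change from WT to mdx/mTR on the log2 scale for each tested gene of the 10-gene set and of 6 lists of other pathway genes, coloured by the edgeR call, with the median of each list as a line. The medians run from -0.16 (co-receptors and adaptors) to 1.23 (target genes).

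Markers of other cell types moved with the groups. Of 8 fibroblast and fibro-adipogenic progenitor markers 7 were higher and 0 lower, and their sum was 1657 to 2271 CPM in WT and 3015 to 4523 CPM in mdx/mTR. This list shares Col1a1 and Col1a2 with the target genes and Dcn with the proteoglycans. Acta2, the mural marker that was higher, is also a target gene, and Fmod is in both the proteoglycan and the tendon list. Of 8 macrophage markers 7 were higher and 0 lower, with sums of 91.5 to 156 and 252 to 675 CPM. Of 6 satellite cell and myoblast markers 4 were higher and 1 lower, with sums of 49.9 to 66.2 and 65.4 to 135 CPM. Of 6 endothelial markers 0 were higher and 4 lower, with sums of 500 to 636 and 378 to 477 CPM, beside the fall of Eng. Of 6 mural cell markers 1 was higher and 3 lower (372 to 516 and 366 to 439 CPM), and of 8 muscle fibre markers 1 was higher and 2 lower (104358 to 114661 and 86789 to 118614 CPM).

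Among the remaining lists, 3 of 5 tendon markers were higher and 0 lower (63.0 to 100.3 and 80.2 to 133 CPM), and 0 of 5 Schwann cell markers were higher and 4 lower (41.3 to 52.8 and 21.9 to 33.9 CPM). Of 3 tested adipocyte markers 0 were called (6.97 to 10.9 and 4.62 to 15.4 CPM), and of 3 neutrophil markers 2 were higher (0.639 to 1.92 and 1.78 to 18.0 CPM). Of 4 T cell markers 1 passed the filter, Cd4, and was higher (sums of 0.139 to 0.610 and 1.49 to 3.26 CPM). The red cell globin genes were listed at 0 in every library, and the remaining red cell marker, Alas2, did not pass the test (11.5 to 41.6 and 9.82 to 22.3 CPM).

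For Tgfb1, Tgfbr2 and Ltbp2, the top of the mdx/mTR group was held by the same libraries as for several of the marker sums. The libraries mdx/mTR 5 and mdx/mTR 2 were first and second in their group for Tgfb1, Tgfbr2 and Ltbp2. They were so too for the fibroblast sum (4523 and 3943 CPM) and the macrophage sum (675 and 458 CPM). The same held for the satellite cell and myoblast sum (135 and 101 CPM) and the mural sum (439 and 416 CPM). The endothelial sum was highest in mdx/mTR 2 (477 CPM), followed by mdx/mTR 3 (443 CPM). The library mdx/mTR 5 was highest of its group for 6 of the 10 genes and had the lowest muscle fibre sum. In WT, the library WT 2 was highest for 6 of the 10 genes. It was also highest for the fibroblast sum (2271 CPM), closely followed by WT 4 (2265 CPM). Its endothelial sum (636 CPM) was the highest of WT, with WT 4 next (545 CPM). So were its mural (516 CPM), tendon (100.3 CPM) and Schwann cell (52.8 CPM) sums and its Alas2 level (41.6 CPM). Its macrophage sum (129 CPM) lay inside the range of WT, and its satellite cell and myoblast sum (49.9 CPM) was the lowest. The part of cell number in the change of any of the 10 genes was not tested.

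**Figure D5:**
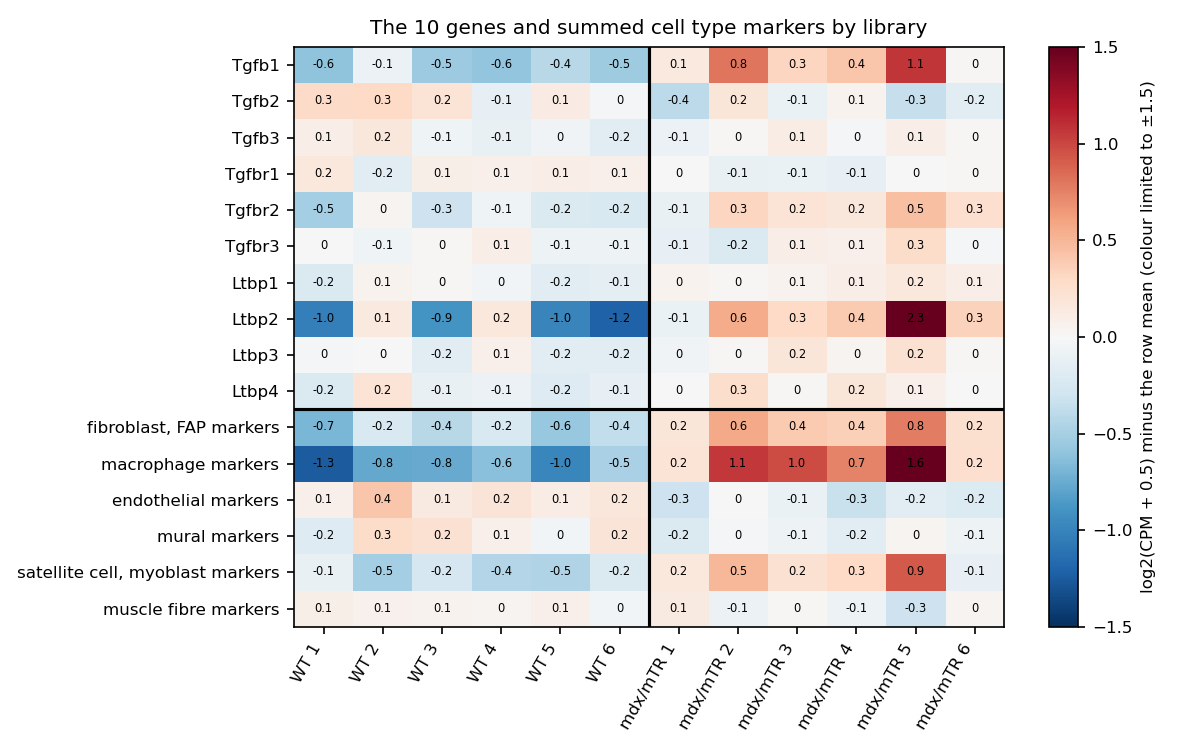
Log2(CPM + 0.5) of each of the 10 genes and of the summed markers of 6 cell types, minus the mean of the row, for the 12 libraries (colour limited to 1.5 either way). The rows of Tgfb1, Tgfbr2, Tgfbr3, Ltbp1, Ltbp2 and Ltbp3 are highest in mdx/mTR 5. So are those of the fibroblast, macrophage, and satellite cell and myoblast markers, while Tgfb3 and Tgfbr1 stay near their row mean.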

How the data were processed

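RNA from the tibialis anterior was sequenced in 12 libraries, 6 per group. The authors deposited whole-number counts per gene symbol. In the authors' deposited table of their comparison, per the file headers, columns hold p-values (raw and adjusted), a log2 fold change with an error on the same scale, a score from the test and a mean normalised signal. FastQC, STAR, DESeq2 and mm10 are named, without roles or versions, per the submitters' processing notes; the counter, annotation and strand setting are not given in the sources used here. All per-sample columns were matched to a sample by title (0 unmatched). Of 24421 rows, 5131 had no counts.

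The deposited counts were tested with edgeR 4.0.16 in R 4.3.3 (filterByExpr, TMM, glmQLFit and glmQLFTest with group as the only term), with Benjamini-Hochberg adjustment over 13937 genes, which hold 99.97% of counts, and a threshold of 0.05. The standard error is the absolute log2 fold change divided by the square root of F, and 95% intervals use it with a t quantile. CPM use TMM-scaled library sizes (factors 0.929 to 0.971 in WT and 0.988 to 1.16 in mdx/mTR). A floor of 3 counts corresponds to 0.0460 to 0.0837 CPM. This covers counting error only, as no molecular identifiers were counted. No pair of libraries within a group agreed within sampling noise (chi-square per degree of freedom 9.29 to 122).

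Exon lengths, positions and overlaps came from GENCODE M21 (GRCm38, the build of mm10). Python 3.11.15 with pandas 2.3.3, numpy 2.4.6 and matplotlib 3.10.9 was used, and the fit was tested on simulated data. The members and lists were chosen with earlier results of these data known. Named were the 10 members, from each pathway list the 3 smallest p-values among rises and the 2 among falls, a set of further genes (Thbs1, Fbn1, Smad2, Smad3, Smad4, Smad7, Ctgf, Dcn and Bgn, with 1 more that is not reported here), Dmd, and the 3 genes most like each of the 3 members with the largest change. Cell type lists are those whose counts are given. Terc, the antisense gene, Smurf2 and single markers named beside a list were chosen after their values were seen. Alternatives were other scalings and low-count filters, DESeq2 1.42.0, limma-voom (limma 3.58.1), a replicate block, each library left out in turn and a threshold of 0.01. Leaving out WT 2 and mdx/mTR 5 together was added after seeing the data.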

Additional observations from a re-analysis of the deposited data

Results flagged for a closer look

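Among the 20 sets of 6 values formed by the 10 genes in 2 groups, the gap between the highest or lowest library and its neighbour exceeded Dixon's 95% critical share of the range of the group in 4, where chance gives about 1 in 20 sets. Tgfb1 was at 9.04 CPM in WT 2, the highest of its group, with a gap of 0.672 of the range. Tgfbr1 was at 40.6 CPM in WT 2, the lowest of its group (0.690). Ltbp4 was at 190 CPM in WT 2, the highest of its group (0.734). Ltbp2 was at 9.18 CPM in mdx/mTR 5, the highest of its group (0.870). With WT 2 and mdx/mTR 5 both left out, the log2 fold change was 0.95 for Tgfb1 (edgeR adjusted p 0.000145) and 1.45 for Ltbp2 (edgeR adjusted p 0.00623).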

How the results depend on the processing

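Tgfb1 (0.859 to 1.19) and Tgfbr2 (0.380 to 0.598) kept their call under all 22 alternatives, and Ltbp2 (1.16 to 2.19) under all but the threshold of 0.01; values are log2 fold changes. Calls over the whole table ranged from 4621 to 7235. With library totals alone 7 of the 10 genes were higher, Tgfb3 (0.196), Ltbp3 (0.306) and Ltbp4 (0.331) passing, and Tgfbr1 (0.0424) and Smad7 (0.0951) turned direction; the median of all genes was 0.169 and 78.2% of calls were higher. Upper quartile factors brought in Ltbp3 (0.187) and Ltbp4 (0.214), and a minimum of 1 CPM in 6 libraries Ltbp3 (0.160). DESeq2 called 1 gene lower, Tgfb2 (-0.262). At 0.01, 2 genes were higher, and Ltbp1 (0.164) and Ltbp2 (1.88) were lost. Without each library in turn, Ltbp1 ranged from 0.135 to 0.192, Ltbp3 from 0.110 to 0.174, Ltbp4 from 0.135 to 0.237, Tgfb2 from -0.322 to -0.201, Tgfbr1 from -0.157 to -0.0944, Tgfbr3 from -0.0220 to 0.0828 and Smad7 from -0.154 to 0.0290, and 0 to 1 of the 10 were lower. Without WT 2 and mdx/mTR 5 together, Tgfbr1 (-0.169) was lower, Ltbp4 (0.237) higher and Tgfbr3 -0.0331. The causes were not tested.

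Libraries with the same replicate number had correlations of deviations from -0.155 to 0.354, above 0.1 in 2 of 6 pairs, numbers 1 (0.354) and 2 (0.285). The labels do not mention pairing, and these correlations cannot decide whether the numbers pair the samples. A fit with the replicate block called 6420 genes, of which 6197 are also among the 6736 called otherwise; under it Ltbp1 (0.167, edgeR adjusted p 0.0523) did not pass and Ltbp4 (0.177, edgeR adjusted p 0.0162) did. The depth limits Ltbp2 most, at 12 counts in its lowest library.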

Other observations

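The genes whose pattern over the 12 libraries lay nearest to that of Tgfb1, Tgfbr2 and Ltbp2 were sought by the root mean square difference of log2(CPM + 0.5) after centring each gene. For Tgfb1 they were Cercam (0.112), Clic1 (0.117) and Ticam2 (0.122), against a median of 0.563 over the tested genes. For Tgfbr2 they were Sntb2 (0.0606), which encodes a syntrophin of the dystrophin complex, Ptpn12 (0.0792), a phosphatase gene, and App (0.0873), against a median of 0.328. For Ltbp2 they were Col16a1 (0.306), a collagen gene, P4ha3 (0.314), a subunit of collagen prolyl hydroxylase, and Wisp1 (0.318), a matricellular gene, against a median of 0.942. The likeness is a description over libraries of 2 groups and has no test.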
